A study of Glycine max with 12 samples.

Results

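The response of young soybean (Glycine max) leaves to high manganese (Mn) was examined by RNA sequencing. The comparison covers 6 of the 12 libraries of the series, chosen by their labels: 3 from young leaves at 100 µM Mn and 3 from young leaves at 5 µM Mn. Plants of both groups were transferred into nutrient solution when the fifth leaf began to appear. Mn was supplied as the sulfate, at the normal level in one group and the high level in the other, and the solution was changed every 3 days. The series description speaks of randomized complete blocks with 3 replicates, but the labels do not tie a library's replicate number to a block, a plant or a pool of plants. They also give no cultivar, genotype or harvest time. For these reasons p-values measure only the spread between these libraries, part of which may be technical. Of the 39811 genes in the table, 26860 were tested. These reached an FPKM of 1 in 3 or more of the 6 libraries, where FPKM is the number of fragments of a gene scaled by its length in kilobases and by the fragment total of the library.

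Mn is the metal of the oxygen-evolving cluster of photosystem II and a cofactor of mitochondrial superoxide dismutase, so leaves need it in small amounts. In excess it can displace other divalent metals and is linked to oxidative damage, and plant cells limit it by moving it into vacuoles and other compartments. In many crops visible injury by excess Mn is described first on older leaves, where the metal accumulates, while young leaves are still expanding.

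The deposited table identifies genes by Wm82.a2.v1 IDs alone. Of the 39811 IDs, 0 could be paired with the 59048 genes that RefSeq lists for assembly Glycine_max_v4.0. Genes are therefore described by level, size of change, length and position along the chromosome as read from the ID, and no function is given. For the same reason the labelled tissue could not be checked against leaf markers, although the extraction text of the labels speaks of nodules where each sample is labelled as leaf. In bulk leaf tissue, fewer cells of a type and less RNA of a gene per cell cannot be told apart.

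Depth was similar in the 6 libraries. The libraries at 5 µM held 18198700, 21027073 and 21070730 fragments, and those at 100 µM held 19608302, 20818236 and 20826335, as recovered from the FPKM values. A tested gene had a mean of 251 fragments per library at the median over genes. Across genes, libraries of the same group correlated at r = 0.979 to 0.984 at 5 µM and 0.975 to 0.979 at 100 µM, and libraries of different groups at 0.886 to 0.931, where genes are not independent replicates. In the values as deposited, the Mn levels separated along the first principal component, which carried 79% of the variance. Scores were -71.5 to -41.1 at 5 µM and 49.2 to 62.3 at 100 µM. After the median-of-ratios scaling described below it carried 76.3%, with scores of -65.3 to -38.9 and 45.6 to 57.9.

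High Mn was accompanied by changes in a large part of the measured genes, and the balance of rises and falls depended on how libraries were scaled. As deposited, 13230 genes were called (49.3% of those tested) by limma on log2(FPKM + 1) with a Benjamini-Hochberg adjusted p below 0.05, 10943 of them higher at 100 µM (40.7%) and 2287 lower (8.51%). The median log2 change over all tested genes was 0.27 as deposited. Median-of-ratios scaling divides each library by the median ratio of its genes to their mean, and brought that median to 0.01. After it, 9300 genes were called (34.6%), 4554 higher (17.0%) and 4746 lower (17.7%), so the share of calls that were higher went from 82.7% to 49.0%. The table holds no spike-in or other outside standard that would fix the scale.

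The 2 sets of calls were nested. The scaling factors were 0.838 to 0.934 at 5 µM and 1.11 to 1.14 at 100 µM, so scaling lowered log2 changes nearly throughout. Nesting and the lack of opposite calls largely follow from this shift. All 4554 genes called higher after scaling were also called higher as deposited, and all 2287 genes called lower as deposited were also called lower after scaling. A further 6389 genes were called higher as deposited alone and 2459 were called lower after scaling alone, and no gene was called in opposite directions. The 6841 genes called in the same direction under both scalings, 25.5% of those tested, are the ones whose call does not rest on the choice between these 2. The words "rose" and "fell" are used of these from here on. The groups did not overlap, with all 3 libraries at 100 µM above all 3 at 5 µM, for 51.1% of tested genes as deposited and 25.0% after scaling. The reverse order held for 10.9% and 25.7%.

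Rises outnumbered falls at 2-fold and 4-fold under either scaling, but not at 16-fold after scaling. On the log2(FPKM + 1) scale, where a change of 1 is a 2-fold change and low genes are understated, 1418 genes rose at least 2-fold under both scalings (5.28%) and 606 fell as much (2.26%). As deposited alone the counts were 2155 higher (8.02%) and 606 lower (2.26%), and after scaling alone 1418 (5.28%) and 1062 (3.95%). At 4-fold or more under both, 294 rose (1.09%) and 125 fell (0.465%). As deposited alone the 4-fold counts were 425 higher (1.58%) and 125 lower (0.465%), and after scaling alone they were 294 (1.09%) and 189 (0.704%). At log2 changes of 3 or more the calls were 87 higher and 34 lower as deposited and 57 and 45 after scaling. At 4 or more, which is 16-fold, they were 13 and 4 as deposited and 7 and 10 after scaling.

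The genes that rose were low at 5 µM, and the genes that fell were moderately abundant there. The mean FPKM at 5 µM had a median of 2.84 among the 4554 genes that rose and 17.0 among the 2287 that fell, beside 5.21 among all tested genes. Among the 294 genes that rose 4-fold it went from a median of 1.89 at 5 µM to 18.0 at 100 µM, and 96 of them were below an FPKM of 1 at 5 µM. Among the 125 that fell 4-fold it went from 38.3 to 4.68, and 18 were below 1 at 100 µM. These levels follow in part from the choice of the genes by their change, and are given as a description.

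**Figure D1:**
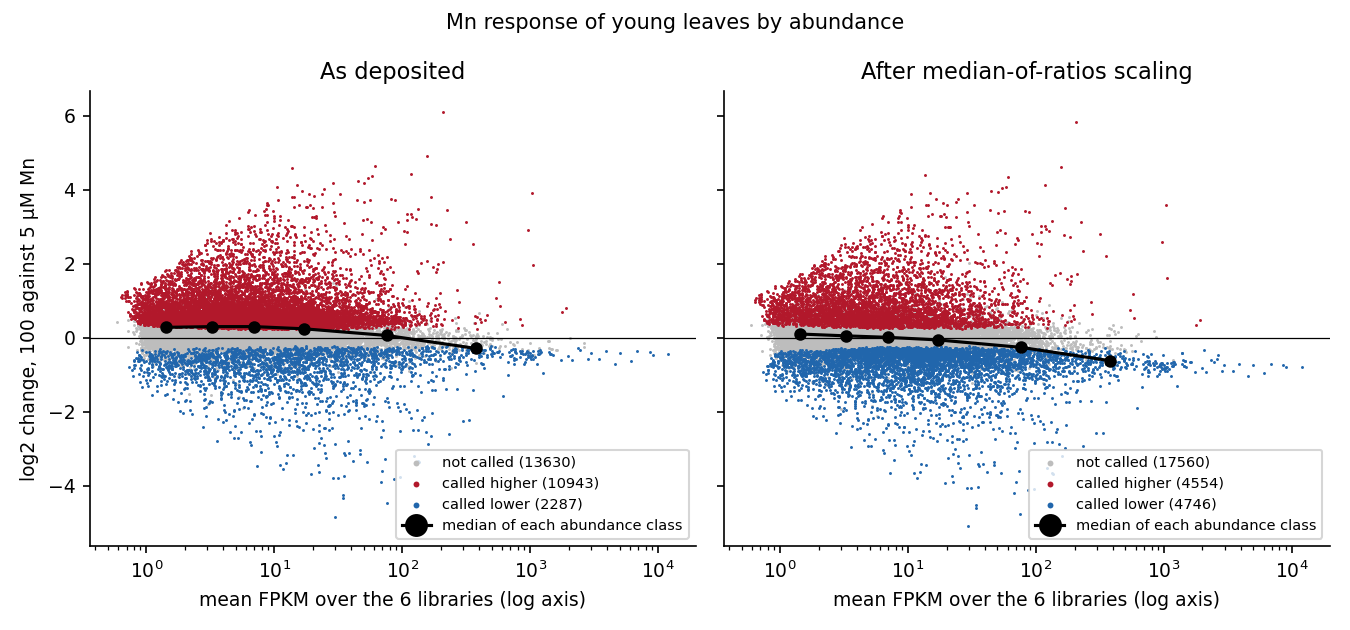
Log2 change at 100 against 5 µM Mn of each tested gene against its mean FPKM over the 6 young-leaf libraries, as deposited (left) and after median-of-ratios scaling (right). Each point is a gene, coloured by its call, and black points are the medians of 6 abundance classes, which run from 0.28 down to -0.29 on the left and from 0.10 down to -0.62 on the right.

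The most abundant transcripts lost ground at high Mn. Of the 336 genes whose FPKM averaged above 200, 163 fell and 16 rose, and their median log2 change was -0.29 as deposited and -0.62 after scaling, beside 0.27 and 0.01 over all tested genes. In the class of 50 to 200, 332 of 1482 genes fell and 174 rose, with a median of 0.06 as deposited and -0.26 after scaling. In the 3 classes up to 10, medians lay between 0.28 and 0.30 as deposited and between 0.01 and 0.10 after scaling. With classes set from the 5 µM libraries alone, the scaled medians ran from 0.23 in the class up to 2 to -0.67 above 200. Set from the 100 µM libraries alone, they were -0.05 and -0.54. The low median of the most abundant class was thus seen whichever group set the classes, while the sign in the least abundant class depended on it.

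The single most abundant gene had an FPKM of 14239, 14095 and 13325 in the 3 libraries at 5 µM and 11374, 9779 and 9408 at 100 µM. Every library at 100 µM was below every library at 5 µM, and the log2 change was -0.45 as deposited (SE 0.09, adjusted p = 0.0078 by limma) and -0.78 after scaling (SE 0.12, adjusted p = 0.0034 by limma). The 10 most abundant genes all fell, with log2 changes of -0.71 to -0.37 as deposited. Of the 20 most abundant, 15 fell under both scalings and 2 rose. The pair that rose held ranks 19 and 20: the first of them had 1387, 1393 and 1385 at 5 µM and 2859, 2314 and 2179 at 100 µM, a log2 change of 0.81 as deposited (adjusted p = 0.0019 by limma) and 0.48 after scaling (adjusted p = 0.027 by limma). The gene of rank 17 shows what scaling does to an even gene, with 2191, 2082 and 1918 at 5 µM and 2147, 1952 and 2043 at 100 µM. Its log2 change was -0.01 as deposited (adjusted p = 0.93 by limma) and -0.34 after scaling (adjusted p = 0.036 by limma), and its groups overlapped in the deposited values.

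Fragments were spread over more genes at 100 µM. The number of genes that together held 50% of the fragments of a library was 786, 886 and 691 at 5 µM and 1347, 1456 and 1505 at 100 µM, so all high-Mn libraries lay above all normal ones. The 20 most abundant genes took 12.5%, 12.0% and 12.8% of fragments at 5 µM and 9.87%, 9.30% and 8.63% at 100 µM. The 1000 most abundant took 50.7 ± 1.38% at 5 µM and 43.0 ± 1.04% at 100 µM (SD, n = 3). As deposited, genes with an FPKM of at least 1 numbered 25177 ± 574 at 5 µM and 26955 ± 45.9 at 100 µM (SD, n = 3). The median FPKM of tested genes was 5.19 ± 0.265 and 6.73 ± 0.124, also as deposited. In each of these measures the groups did not overlap, and the exact permutation p (2-sided, n = 3 against 3) was 0.1, the smallest this design allows. Shares of fragments do not depend on the scale of a library, but the median FPKM and the number of genes at an FPKM of 1 do. Scaling divides FPKM by 0.838 to 0.934 at 5 µM and by 1.11 to 1.14 at 100 µM, which brings the medians of the groups closer. Neither measure was computed after scaling.

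**Figure D2:**
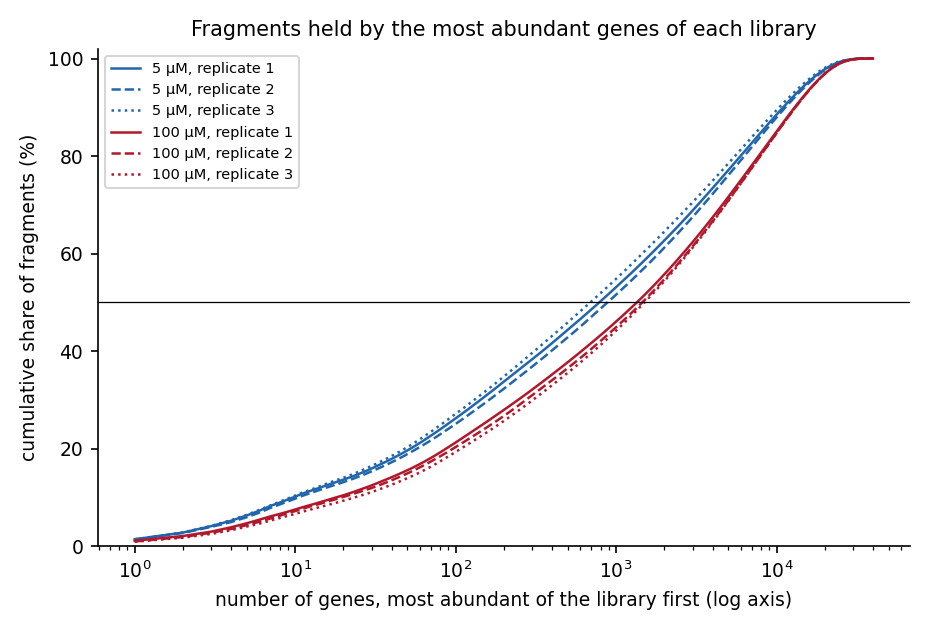
Cumulative share of fragments (%) against the number of genes, ranked within each library from the most abundant down (log axis), with one line per library. The black line marks 50%, which the 5 µM libraries reach at 691 to 886 genes and the 100 µM libraries at 1347 to 1505.

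The genes that fell held 41.0%, 40.3% and 43.0% of fragments at 5 µM and 28.2%, 27.4% and 26.4% at 100 µM. The genes that rose held 5.34%, 6.12% and 4.89% at 5 µM and 12.9%, 13.5% and 14.8% at 100 µM. Both sets were chosen by this contrast, so the shares describe how much of each library they made up.

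On the log2(FPKM + 1) scale, on which the order of genes depends, the strongest rise was that of Glyma.16G170100.Wm82.a2.v1, whose ID places it on chromosome 16. Its FPKM was 2.56, 22.8 and 1.15 in the 3 libraries at 5 µM and 272, 539 and 402 at 100 µM, from 24 to 473 fragments and 5279 to 11088 fragments per library. All libraries at 100 µM were above all at 5 µM, which the choice of these genes required. Among the 5 µM libraries, replicate 2 was the highest. The log2 change was 6.11 as deposited (SE 0.82, adjusted p = 0.0017 by limma) and 5.83 after scaling (SE 0.81, adjusted p = 0.0023 by limma). With each library left out in turn it was 5.41 to 7.14 as deposited, highest without replicate 2 at 5 µM. With a pseudocount of 0.1 in place of 1 the gene came second among the 2934 rises eligible, at 6.52, behind a gene on chromosome 10 at 6.72 that went from a mean FPKM of 0.183 to 27.1. By the plain ratio of mean FPKM, 45.9-fold here, it came in place 13.

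Second on that scale was Glyma.07G243500.Wm82.a2.v1, placed on chromosome 7, with an FPKM of 3.00, 46.8 and 2.75 at 5 µM and 135, 333 and 423 at 100 µM. Its groups did not overlap either, as the choice required, and the same 5 µM library was again the high one. The log2 change was 4.90 as deposited (SE 0.98, adjusted p = 0.0068 by limma) and 4.61 after scaling (SE 0.96, adjusted p = 0.010 by limma). With each library left out in turn it was 4.28 to 6.11 as deposited, highest without replicate 2 of the 5 µM group. With a pseudocount of 0.1 it took place 15, and by the ratio of mean FPKM, 17.0-fold, place 67.

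The strongest falls on the same scale were more even between replicates. Glyma.13G219100.Wm82.a2.v1, on chromosome 13 by its ID, had an FPKM of 51.3, 56.1 and 67.1 at 5 µM and 0.846, 0.740 and 1.71 at 100 µM. All 3 high-Mn libraries were at or below 30 fragments, against 788 to 1193 at 5 µM. The log2 change was -4.84 as deposited (SE 0.19, adjusted p = 0.00015 by limma) and -5.08 after scaling (SE 0.20, adjusted p = 0.00012 by limma). Glyma.15G093100.Wm82.a2.v1, on chromosome 15, had 125, 118 and 192 at 5 µM and 2.90, 5.09 and 10.1 at 100 µM. Its groups did not overlap, again as required by the choice, and replicate 3 was the highest library of both. The log2 change was -4.48 as deposited (SE 0.37, adjusted p = 0.00050 by limma) and -4.77 after scaling (SE 0.38, adjusted p = 0.00055 by limma). With a pseudocount of 5 it came first among the 1763 falls eligible and the gene on chromosome 13 came in place 4, and with 0.1 they took places 6 and 1.

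**Figure D3:**
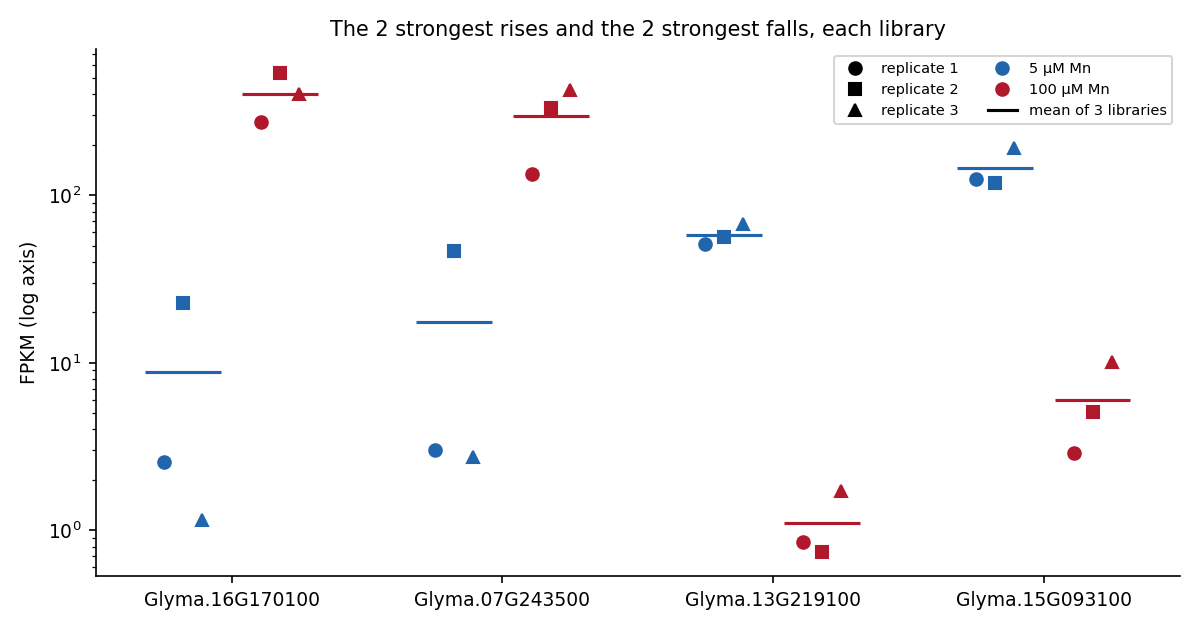
FPKM (log axis) of the 2 strongest rises and the 2 strongest falls by change in log2(FPKM + 1) in each young-leaf library, at 5 µM Mn (blue) and 100 µM Mn (red), with a symbol for each replicate number and lines at the mean of 3 libraries. The 5 µM and 100 µM points do not overlap for any of the 4 genes, a condition of their choice. Replicate 2 at 5 µM stands at 22.8 and 46.8 for the rises, where the other 5 µM libraries lie between 1.15 and 3.00.

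These 4 genes head longer lists of strong changes. The 15 strongest rises, among genes that averaged an FPKM of 5 or more in a group and had no overlap between the groups, had log2 changes of 3.91 to 6.11 as deposited and 3.58 to 5.83 after scaling. They lay on 11 chromosomes, and their mean FPKM had a median of 4.83 at 5 µM and 91.0 at 100 µM, where the highest reached 1929. The 15 strongest falls had log2 changes of -4.84 to -3.47 as deposited and -5.08 to -3.66 after scaling, on 13 chromosomes, with a median of 65.3 at 5 µM and 2.89 at 100 µM. By this rule 2934 rises and 1763 falls were eligible.

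Few genes went from undetected to clearly expressed. No fragment was found in any 5 µM library for 54 genes that had more than 3 fragments in each library at 100 µM, and the reverse held for 2 genes. Of all genes without a fragment at 5 µM, 10 averaged an FPKM of 1 or more at 100 µM, at most 3.75. Only 4 of these were tested. In the reverse case 1 gene did so, and it was not tested. A count of 0 allows up to 3 fragments in a library, an FPKM of 0.142 to 0.165 in a gene of 1 kb, which covers counting error only. An FPKM of 1 was crossed by more genes. It was not reached in any 5 µM library but reached in all 100 µM libraries by 940 genes, and the reverse held for 152. Counts at a fixed FPKM, here and in what follows, depend on how libraries are scaled and are given under 1 scaling only. At a higher level, 25 genes were below an FPKM of 1 in all 5 µM libraries and at 5 or more in all 100 µM libraries, and 5 genes showed the reverse. All 30 of these were called under both scalings, a selection that the definition nearly fixes.

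Libraries of the same group were not spread evenly. On the first principal component of the values as deposited, replicate 2 at 5 µM lay nearest to the high-Mn libraries, at -41.1. Replicate 3 lay farthest from them, at -71.5. Replicate 2 was the highest 5 µM library for 91.8% of the 294 genes that rose 4-fold, beside 31.6% of all tested genes, and for 15 of the 15 strongest rises. The 294 genes together held 0.159%, 0.375% and 0.132% of fragments in the 3 libraries at 5 µM and 1.56%, 1.90% and 2.33% at 100 µM. Replicate 3 was the highest 5 µM library for 80.8% of the 125 genes that fell 4-fold, beside 39.4% of all tested genes. At 100 µM replicate 3 was the highest for 79.9% of the 4-fold rises and also for 74.4% of the 4-fold falls, beside 36.2% of all tested genes. It was thus mostly the library farthest from the 5 µM mean in the rises and nearest to it in the falls. Replicate 1 was the nearest to the 5 µM mean for 72.8% of the 4-fold rises and 14.4% of the 4-fold falls, beside 37.0% of all tested genes.

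Within-group spread was accordingly wider in the genes that rose most. The median SD between 5 µM libraries was 0.529 on the scaled log2 scale in the 4-fold rises, 0.326 in the 4-fold falls and 0.140 over all tested genes. At 100 µM it was 0.434, 0.399 and 0.130. Without replicate 2 at 5 µM the 4-fold counts were 391 higher and 131 lower, and without replicate 3 at 100 µM they were 218 and 145. Of the 294 rises 283 were still called under both scalings with each of the 6 libraries left out in turn, as were 124 of the 125 falls. What set the libraries apart was not tested.

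**Figure D4:**
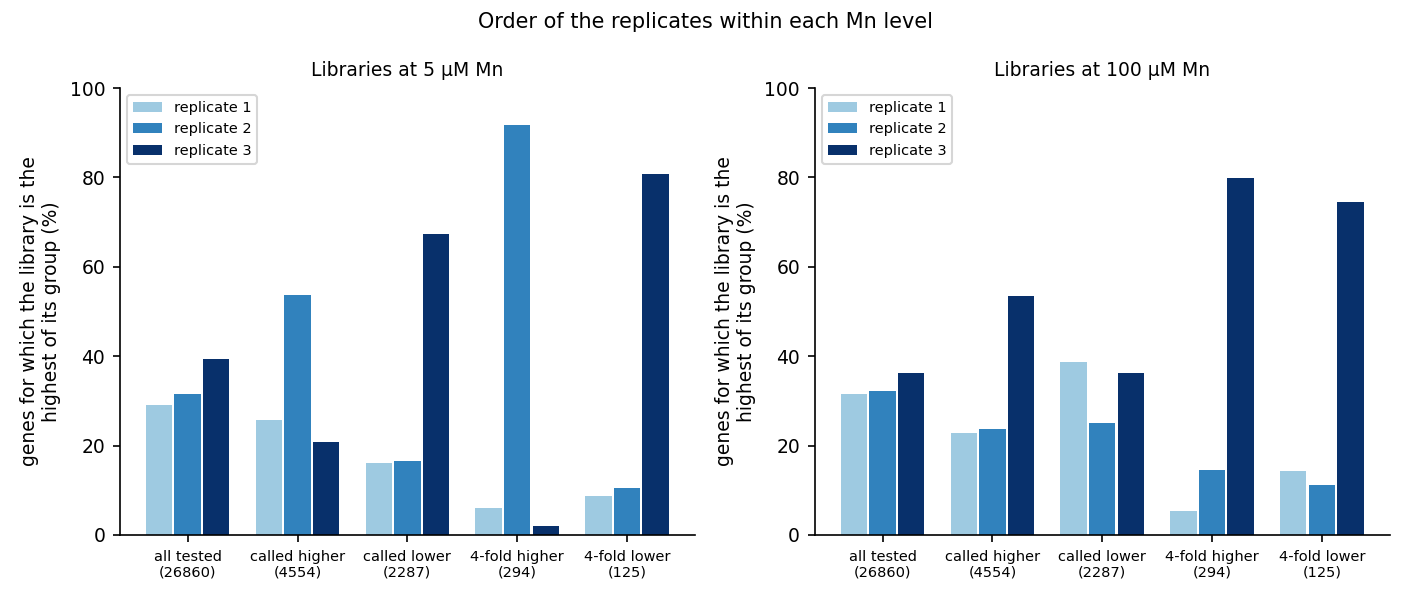
Share of genes (%) for which each replicate was the highest library of its group after median-of-ratios scaling, for the 5 µM (left) and 100 µM (right) libraries, over all tested genes and the genes called under both scalings, with the number of genes in brackets. Bars of a group of 3 add up to 100%, and replicate 2 at 5 µM reaches 91.8% in the genes that rose 4-fold.

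Shorter genes had the more positive change, and what lies behind this was not tested. Gene lengths, recovered from the FPKM values, had a median of 1883 bases over tested genes. With tested genes divided by length into 4 classes of near-equal number, in the shortest, from 169 to 1334 bases, 21.6% of genes were called higher and 14.7% lower after scaling, and in the longest, from 2575 to 16860 bases, 11.8% were called higher and 19.5% lower. Median log2 changes from the shortest class to the longest were 0.36, 0.29, 0.26 and 0.19 as deposited and 0.09, 0.02, 0.00 and -0.07 after scaling. Level also differed between these classes, with a median FPKM of 8.29 in the shortest and 4.78 in the longest. Within each of the 5 abundance classes up to a mean FPKM of 200, the shortest genes had a higher median change than the longest, by scaled medians of 0.14 against 0.05 in the lowest class and -0.07 against -0.47 in the class of 50 to 200. Above 200 the values were -0.53 and -0.61, the latter from 20 genes, but the lengths between had -0.73 and -0.64, so there was no steady order. The 294 genes that rose 4-fold had a median length of 1322 bases and the 125 that fell 4-fold 1848.

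**Figure D5:**
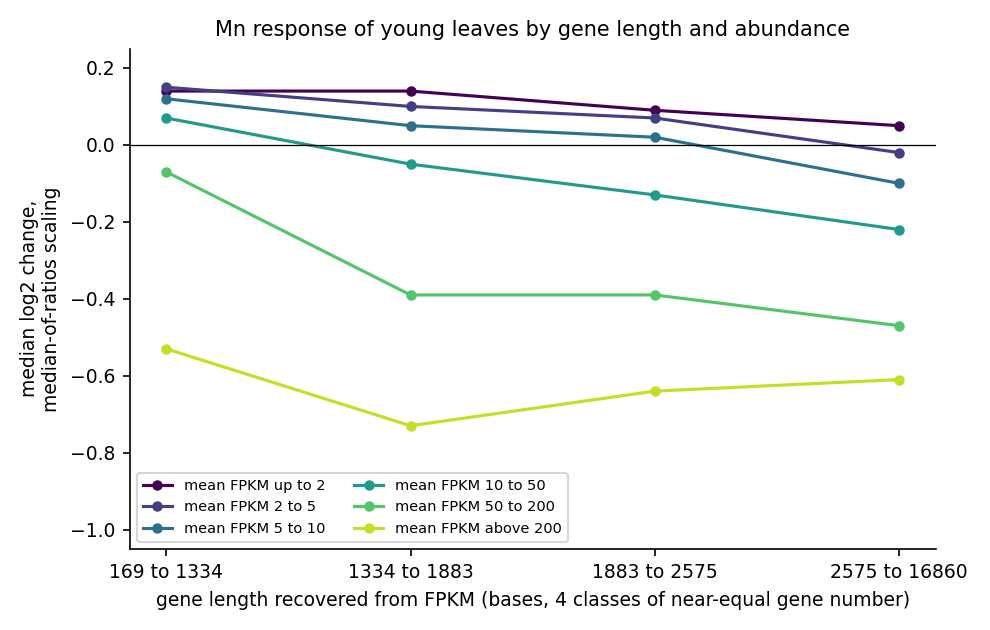
Median log2 change after median-of-ratios scaling, 100 against 5 µM Mn, in 4 classes of gene length (bases) of near-equal gene number, with one line per class of mean FPKM over the 6 libraries. In the class of 10 to 50 the medians fall from 0.07 in the shortest genes to -0.22 in the longest, and the class above 200 lies between -0.73 and -0.53 at every length.

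The response was spread over all 20 chromosomes. By the chromosome in the ID, the share of tested genes that rose ran from 14.3% on chromosome 12 to 20.2% on chromosome 16, around the 17.0% of all tested genes. The share that fell ran from 6.73% on chromosome 20 to 9.92% on chromosome 13, around 8.51%. Median log2 changes per chromosome lay between 0.25 and 0.30 as deposited and between -0.01 and 0.03 after scaling.

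Genes that rose 4-fold had a risen neighbour at a higher rate than tested genes at large, a description without a test. Neighbours were taken as consecutive IDs of the table on a chromosome, with ID numbers at most 300 apart, which gave 17794 pairs with both genes tested. Of the neighbours of genes that rose, 22.9% rose too, beside 16.6% of all neighbours, and of the neighbours of genes that fell, 13.0% fell, beside 8.50%. For the genes that rose 4-fold, 17.4% of neighbours also rose 4-fold, beside 1.00% of all neighbours. These came from 31 pairs with 54 genes on 15 chromosomes, and the log2 changes within a pair differed by a median of 0.33. The same share was 2.33% for genes that fell 4-fold, from 2 pairs, beside 0.483% of all neighbours.

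The longest unbroken run of rises was 6 genes on chromosome 8. Their mean FPKM went from 0.762 to 2.49, from 0.768 to 5.31, from 80.5 to 336, from 159 to 379, from 236 to 1681 and from 63.3 to 405 in the order of their IDs, with log2 changes of 0.98 to 2.91 as deposited. All 6 thus rose, from levels that differed widely within the run. Among falls the longest runs had 4 genes, of which there were 2, and in the first of them, on chromosome 6, log2 changes were -2.25 to -0.38 as deposited. Neighbouring genes can be tandem copies of near-identical sequence, and the rule by which fragments of such copies were assigned is not given in the sources used here, so the values of single genes in such pairs are uncertain.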

How the data were processed

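The authors deposited 1 table of FPKM for 39811 genes and 12 libraries, of which the 6 young-leaf libraries were compared. The tools listed in the submitters' processing notes are DESeq2 (1.6.3), HISAT2 (2.1.0) and Bowtie2 (2.2.3); which step each served is not stated there. Neither are the counting rule, strand and treatment of multiply matching fragments.

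FPKM steps gave whole fragments for all 39811 genes (within 1e-06 of a whole number), which was the condition of the search. The smallest length that met it was taken. Length and fragments thus come out too small in a gene where all fragment numbers share a factor with the length. Gene lengths were solved on all 12 libraries, since a length is shared, and listed genes held 99.995 to 99.996% of the recovered totals. Intervals and floors cover counting error only. Genes that reached an FPKM of 1 in 3 or more of the 6 libraries were fitted as log2(FPKM + 1), with 2 group means, in limma 3.58.1 (R 4.3.3) with a variance trend, 2-sided. P-values were Benjamini-Hochberg adjusted over the 26860 genes, and the threshold was 0.05. The fit was repeated after division by median-of-ratios factors from 33502 genes, which were 0.838 to 0.934 at 5 µM and 1.11 to 1.14 at 100 µM. The fit was tried on simulated libraries in which few genes changed, as many up as down, with the same added spread for every gene. It therefore does not test a shift of most genes or uneven replicates. The recovery was tried on simulated fragment numbers. No 2 replicates agreed within sampling noise, with a chi-square per gene of 9.6 or more.

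Genes named by ID are the 2 strongest rises and 2 strongest falls called under both scalings, averaging an FPKM of 5 or more in a group, with no overlap. The rule also asked for named genes and members of pathway and marker lists. As no ID could be paired with a name, these could not be formed and are not reported. Genes given by abundance rank, classes of length and the order of replicates were chosen after values were seen. Members, lists and alternatives were chosen with earlier results of these data known.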

Additional observations from a re-analysis of the deposited data

How the results depend on the processing

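Calls as deposited numbered 9877 to 11940 when each library was left out in turn, against 13230 with all 6, and calls after median-of-ratios scaling 6808 to 8090, against 9300. For calls in the same direction under both scalings the range was 5090 to 5835, against 6841. Among genes averaging an FPKM of 5 or more these 3 counts were 8054, 6117 and 4103, from fewer genes tested. The balance after scaling then moved from 4554 higher and 4746 lower (49.0% higher) to 2455 and 3662 (40.1%), and as deposited from 82.7% to 79.5% higher. A 2-fold threshold left 2761 as deposited and 2480 after scaling. Quantile normalization gave 8826 calls, 48.8% of them higher. Pseudocounts of 0.1 and 5, no filter, other variance models, voom on recovered fragments and factors from genes of intermediate level changed no count by over 1.5 times. The replicate number as a term (replicate block) gave 12145, 7990 and 6022 calls. As deposited, deviations of same-numbered libraries correlated at 0.15, 0.01 and -0.10, beside -0.15 to 0.12 for libraries of other number. The numbers were therefore not taken to pair the libraries, although the series description mentions blocks. With 3 libraries per group these correlations are not independent and cannot settle whether blocks were shared. Of all calls under both scalings, 2729 of 4554 rises (59.9%) and 1435 of 2287 falls (62.7%) kept their call with each library left out in turn. Of the 2-fold calls under both scalings, 1272 of 1418 rises and 542 of 606 falls did so. The 4 genes named by ID kept direction and call in each alternative, though not all kept their place in the order under other pseudocounts, with adjusted p-values up to 0.04 by limma. The differences per library (100 minus 5 µM) kept their sign with each library left out. The share of the 20 most abundant genes differed by -3.48 to -2.86 percentage points. As deposited, the median FPKM differed by 1.39 to 1.66 and the number of genes at an FPKM of at least 1 by 1471.8 to 2041.3. These last measures depend on the scale and were not computed after scaling. With 2 against 3 libraries the exact permutation test cannot pass the threshold.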
